A study of Mus musculus with 8 samples.

Results

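The genes described here are 59 growth factor and receptor genes of the FGF, EGF, VEGF, PDGF and HGF families and their close relatives, as expressed in cardiac mesenchymal stromal cells (cMSCs) of aged and young mice. They were chosen by name: every non-control probe of the array whose gene name was on the list counted as a member, which gave 128 probes of the 56605 on the array. Of the 59 genes, 47 had a probe that the scanner software called well above background on every array of the aged or of the young group, and were tested, among 20210 tested genes in all. The genes comprised 39 secreted ligands, 3 intracellular FGF homologous factors and 17 receptors. RNA of sorted cMSCs was compared on 1-colour Agilent mouse arrays, 1 array for each of 8 pools. The 4 aged pools, numbered 1 to 4, came from 20-month-old male C57BL/6 mice, and the 4 young pools, numbered 2 to 5, came from 5-month-old males of the same strain. The study names C57Bl/6JRj mice and a Cx3cr1 reporter line on C57BL/6, and the sources used here do not tie either to these pools. Age is the only difference between the groups that the labels give. By the stated design 3 mice went into a pool, and the code of aged pool 4 can be read as 2 mice. The cells had been dissociated enzymatically from the ventricles and sorted, without culture, as negative for the leukocyte marker CD45 and the endothelial marker CD31 and positive for Sca-1 and PDGFRα, so PDGFRα, itself a receptor of the PDGF family, was used to select them. Pools of different mice are the replicates, and n is 4 for each age.

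Growth factors of these families are secreted or membrane-bound proteins that bind receptor tyrosine kinases on the same or on neighbouring cells. Binding brings receptors together in pairs, and the signal runs through adaptor proteins to the RAS-ERK, PI3K and phospholipase C pathways. In the heart, stromal cells are a known source of ligands: FGFs and HGF act on muscle, epithelium and vessels, VEGFs and angiopoietins on endothelium, PDGFs on mural cells and fibroblasts, and the EGF-like ligands on the ERBB receptors of many cell types.

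Levels are given on the log2 scale, scaled to the 75th percentile of the signals on the same array, a percentile that ranged between 479 and 816 intensity units over the 8 arrays. A level can be set against the same gene's level in another pool, not against another gene. All 8 tested marker genes of cMSCs were well above background, with Pdgfra at 5.13, 5.13, 5.05 and 5.27 in aged pools 1 to 4 and 5.48, 5.35, 5.18 and 5.41 in young pools 2 to 5, and their log2FC lay between -0.71 and 0.67. Thy1, which encodes the surface protein CD90, passed the test as lower in aged cMSCs (log2FC -0.71, adjusted p = 0.0479 in limma), Ly6a, the gene of the sort marker Sca-1, was above the young pools in every aged pool and did not pass (log2FC 0.67, adjusted p = 0.0518), and Col1a1, a collagen gene, was below them in every aged pool and did not pass (log2FC -0.38, adjusted p = 0.0948). Pooled RNA cannot tell fewer cells of a type from less RNA per cell, and genes of other cell types were detected as well. The summed level of the 4 tested of 6 neutrophil genes, taken as the log2 of the summed signals, was 1.54 to 3.27 in aged pools and 0.34 to 0.91 in young pools. Of the 4, 3 passed the test as higher in aged pools, against 2.36% of all tested genes. S100a9, 1 of the 3, was well above background on every array only in the aged group, where it is high. Its place in this count and sum is not independent of that rule. The other 2 neutrophil genes, Ngp and Ltf, had no probe that met the rule. The sum of 6 tested of 7 cardiomyocyte genes was 2.31 to 3.07 in aged pools and 3.05 to 3.35 in young pools, and 1 of them passed as lower. At an unadjusted p under 0.05 in limma 4 of the 6 were lower, against 5.66% of all genes. In 3 every aged pool lay below every young pool, against 4.05%, and 1 of the 6 had a positive log2FC. The sums of 8 endothelial genes overlapped (3.19 to 3.95 in aged pools, 3.21 to 3.73 in young pools) and none of the 8 passed. For 7 mural genes the sums were 4.46 to 4.64 in aged pools and 4.59 to 4.81 in young pools, with none passing, and for 7 of 8 macrophage genes 4.98 to 5.57 in aged pools and 4.69 to 5.25 in young pools, with 1 passing as higher. In such sums the brightest probes weigh most: Egfl7 among the endothelial, Itgam among the macrophage and Acta2 among the mural genes. The sums therefore follow those genes more than the whole list. The part of these other cells in the values below was not tested.

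Among the 47 tested genes, 4 passed the test as higher in aged cMSCs, against 2.36% of all tested genes, and 1 passed as lower, against 0.787%. A gene passed at a Benjamini-Hochberg adjusted p under 0.05 in limma, with the adjustment over all 20210 genes. The 4 that rose were Ereg, which encodes the EGF receptor ligand epiregulin, Fgf9, Hgf and Figf, the array's name for the gene of VEGF-D, now called Vegfd. The 1 that fell was Angptl1, which encodes an angiopoietin-like protein. In 8 genes every aged pool lay above every young pool, against 6.67% of all tested genes, and in 2 every aged pool lay below, against 4.05%. At the paper's own thresholds, an unadjusted p of 0.01 and a log2FC of 0.5 in size, 6 were higher and 1 was lower in aged cMSCs, against 3.22% and 1.26% of all genes. Btc, counted in the 8 and in the 6, was well above background on every array only in the aged group, where it is high. The median log2FC of the 47 was 0.14, against 0.0016 over all genes, and 33 of the 47 were positive, against 10189 of all 20210 genes. The members and the other gene lists were chosen with earlier results of these data known. Such comparisons with all genes are therefore not independent of the data. All 5 genes that passed encode secreted ligands. Of the 33 tested ligands 4 were higher and 1 was lower, and of the 13 tested receptors 0 passed in limma, with 2 receptors at an unadjusted p under 0.05, both lower (Fgfr3 and Tek). The background at that unadjusted threshold was 5.66% of all genes. The median log2FC was 0.21 in ligands and 0.031 in receptors, and the difference between ligands and receptors was not tested.

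**Figure D1:**
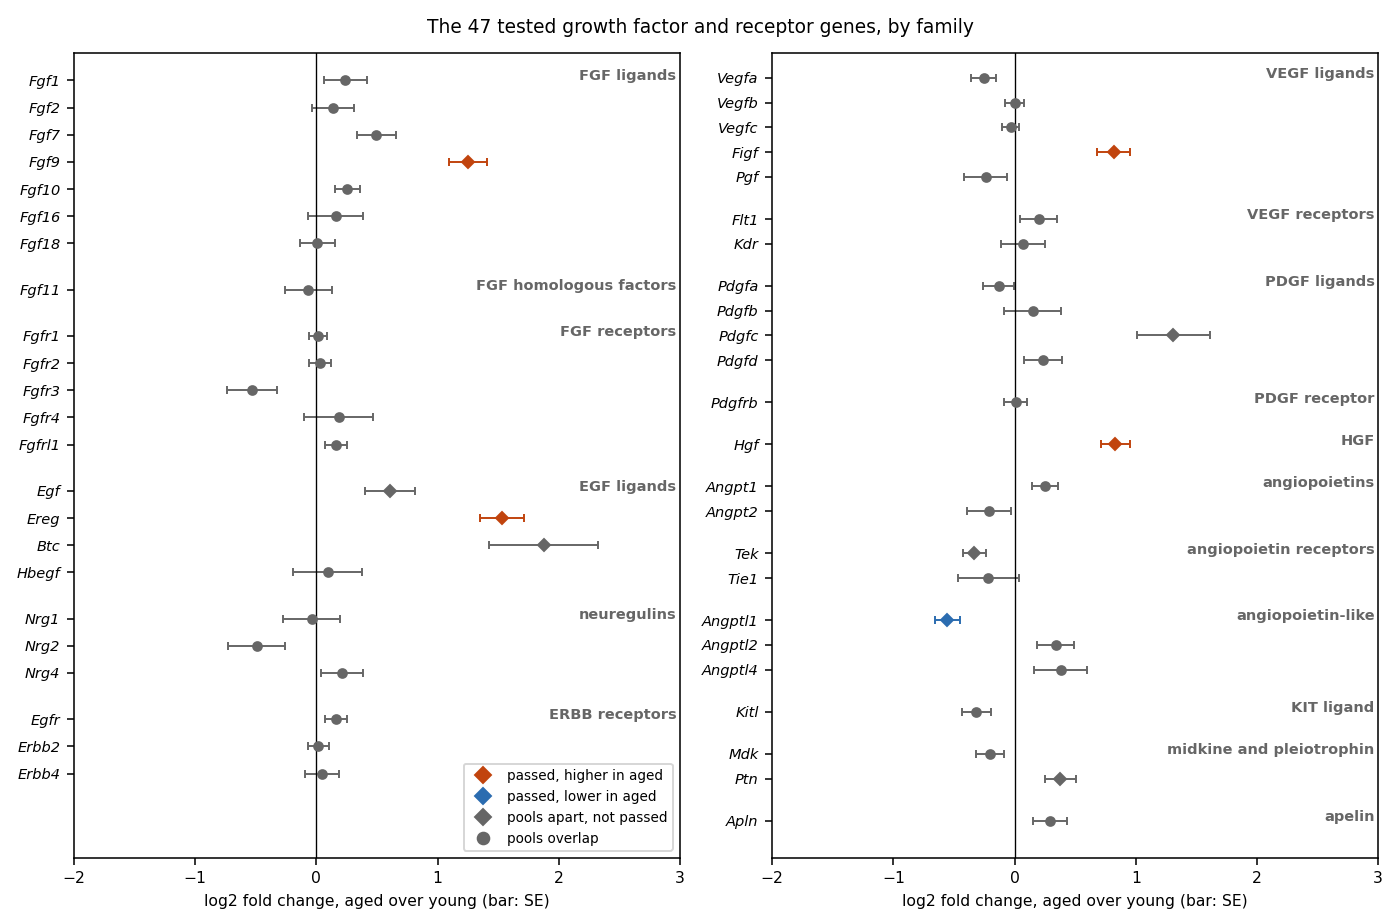
The log2 fold change of aged over young cMSCs with its standard error, for each of the 47 tested genes grouped by family. Diamonds mark genes whose aged and young pools did not overlap, and colour marks the 5 that passed the test: Fgf9, Ereg, Figf and Hgf to the right of 0 and Angptl1 to the left.

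RefSeq promoter sequence on GRCm38.p6 was at hand for 44 of the 59 genes, by symbol, and for 4 of the 5 that passed. The 250 bases upstream of each annotated start are shown for these 4 to set the letters of genes that moved beside each other. Capitals mark matches, on either strand, to the core of the cAMP response element (TGACGT), the AP-1 motif (TGANTCA), the TATA box (TATAAA) or the GC box (GGGCGG); no 2 matches overlapped.
Fgf9, chr14:58072436-58072685, plus strand: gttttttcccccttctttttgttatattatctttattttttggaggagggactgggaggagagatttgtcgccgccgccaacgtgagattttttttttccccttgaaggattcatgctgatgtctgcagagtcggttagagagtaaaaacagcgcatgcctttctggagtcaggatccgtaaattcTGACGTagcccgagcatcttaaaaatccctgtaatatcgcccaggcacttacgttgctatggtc
Figf, chrX:164373272-164373521, plus strand: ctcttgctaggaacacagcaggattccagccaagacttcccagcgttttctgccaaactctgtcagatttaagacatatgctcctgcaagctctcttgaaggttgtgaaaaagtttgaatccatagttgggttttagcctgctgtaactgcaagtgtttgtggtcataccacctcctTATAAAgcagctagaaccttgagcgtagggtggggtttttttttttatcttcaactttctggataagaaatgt
Hgf, first start, chr5:16553245-16553494, plus strand: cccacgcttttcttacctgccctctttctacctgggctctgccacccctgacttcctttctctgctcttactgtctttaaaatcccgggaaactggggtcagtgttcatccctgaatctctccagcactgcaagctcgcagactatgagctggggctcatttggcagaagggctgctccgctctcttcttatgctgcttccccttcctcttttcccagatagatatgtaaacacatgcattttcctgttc
Hgf, second start, chr5:16553651-16553900, plus strand: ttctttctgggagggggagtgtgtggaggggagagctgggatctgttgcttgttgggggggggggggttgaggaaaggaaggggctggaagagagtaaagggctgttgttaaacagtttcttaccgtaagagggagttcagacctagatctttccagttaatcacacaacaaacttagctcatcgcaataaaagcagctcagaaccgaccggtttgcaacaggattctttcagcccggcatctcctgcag
Angptl1, chr1:156838773-156839022, plus strand: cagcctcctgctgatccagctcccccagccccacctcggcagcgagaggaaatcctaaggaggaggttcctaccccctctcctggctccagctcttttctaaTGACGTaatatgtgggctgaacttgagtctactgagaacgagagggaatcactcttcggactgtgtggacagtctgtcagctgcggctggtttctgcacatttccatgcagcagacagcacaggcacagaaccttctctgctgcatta
The windows of Fgf9, which rose, and Angptl1, which fell, each held TGACGT, a match found in 6.47% of the 32851 promoter windows of the same length. In Fgf9 it began 64 bases before the start and in Angptl1 148 bases before it. The Figf window held a TATA box 73 bases before the start, as 12.4% of windows did. Neither Hgf window held any of the 4 motifs, and no window held TGANTCA or GGGCGG, which were present in 6.75% and 32.7% of all windows. The GC content was 44.8% for Fgf9, 42.4% for Figf, 50.8% and 51.2% for Hgf and 54.8% for Angptl1, against a median of 52.4% over all windows. These matches describe the letters alone; binding was not measured.

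In the FGF family, Fgf9 was the 1 of 7 tested ligands that passed. It encodes a ligand of several FGF receptors, known for its role in the growth of the developing heart and lung mesenchyme. Its probe lies at chr14:58728897-58728956 (mm9). The level was -1.92, -2.18, -2.25 and -1.88 in aged pools 1 to 4, against -2.96, -3.67, -3.31 and -3.31 in young pools 2 to 5. All 4 aged pools lay above all 4 young pools, with young pool 2 the highest and young pool 3 the lowest of the young. The log2FC was 1.25 ± 0.16 (SE), a 2.38-fold higher signal in aged cMSCs, with an adjusted p of 0.00478 in limma. The 8 arrays sat on 1 slide in 2 rows of 4, with 2 aged and 2 young pools in each row, and the difference was 1.59 in the first row and 0.92 in the second. With normexp background correction the log2FC was 0.75, so the size of this change depended on how dim signals are corrected.

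The other 6 tested FGF ligands did not pass. Fgf7, the keratinocyte growth factor made by mesenchyme for epithelium, was at 0.72, 0.58, 0.48 and 0.90 in aged pools and 0.62, -0.094, 0.13 and 0.050 in young pools. Young pool 2 lay among the aged pools, and the log2FC was 0.49 ± 0.16 (adjusted p = 0.179). Fgf10, another mesenchymal ligand for epithelial FGF receptors and, like Fgf7, a ligand of the receptor encoded by Fgfr2, had -0.58, -0.72, -0.87 and -0.57 in aged pools and -0.79, -0.84, -1.06 and -1.07 in young pools (log2FC 0.26 ± 0.11, adjusted p = 0.313). Its groups also overlapped. The remaining 4, Fgf1, Fgf2, Fgf16 and Fgf18, had log2FC between 0.0085 and 0.24, each less than 1.4 times its SE from 0. Fgf16 was near the limit of detection, since 1 young array did not have it well above background, and Fgf5, Fgf20 and the endocrine ligand Fgf21 were not tested. Fgf21 was well above background on 0 aged arrays and 2 young arrays. Of the intracellular homologous factors, which bind sodium channels and activate no FGF receptor in the usual way, Fgf11 was tested (log2FC -0.065 ± 0.19) and Fgf13 and Fgf14 were not.

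All 5 FGF receptor genes were tested and 0 passed in limma. At an unadjusted p under 0.05, 1, Fgfr3, was lower, against 5.66% of all genes, and 0 were higher, against 8.5%. Fgfr1 had 6.17, 6.26, 6.28 and 6.28 in aged pools and 6.29, 6.30, 6.17 and 6.18 in young pools. Its 4 kept probes had log2FC between -0.038 and 0.037, and the pools spread over 0.13 log2 units on the brightest probe. Fgfr2 had a log2FC of 0.031 ± 0.090 and the decoy-like receptor gene Fgfrl1 one of 0.16 ± 0.090. Fgfr3 was at -0.047, 0.060, -0.46 and -0.54 in aged pools and 0.79, 0.15, 0.22 and -0.029 in young pools, a log2FC of -0.53 ± 0.20 that did not pass (adjusted p = 0.268), with aged pool 2 inside the range of the young pools. Fgfr4 was measured by 3 kept probes that disagreed. The brightest gave 0.18 ± 0.28, the second -0.70 ± 0.20 and the third 0.13 ± 0.44, although the first 2 share 4 bases of the genome and lie side by side, so no direction is given for Fgfr4.

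Of the 4 tested EGF-like ligands 1, Ereg, passed the test. In 3 of the 4 every aged pool lay above every young pool, against 6.67% of all tested genes. Of these 3, Btc was tested only through the aged group, where it is high, so its place in this count is not independent of that rule. These ligands are made as membrane-anchored precursors and are released by proteases. Ereg encodes epiregulin, a ligand of EGFR and ERBB4, and its probe lies at chr5:91522553-91522612 (mm9). Its level was -0.91, -0.68, -0.56 and -0.20 in aged pools, against -1.76, -2.18, -2.11 and -2.42 in young pools. The lowest aged pool exceeded the highest young pool by 0.85 log2 units. The log2FC was 1.53 ± 0.18, or 2.89-fold higher in aged cMSCs, with an adjusted p of 0.00364 in limma, the smallest among the 47 genes. It was 1.75 in the first slide row and 1.32 in the second.

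Btc, which encodes betacellulin, likewise a ligand of EGFR and ERBB4, had the largest estimate of the 47, and it did not pass. Its level was -2.82, -2.92, -2.67 and -1.11 in aged pools, against -3.98, -5.10, -4.32 and -3.62 in young pools. Aged pool 4 lay far above the other 3 aged pools, and 1 young array, pool 3, was not well above background. A second probe of the same transcript was well above background on 0 aged and 0 young arrays. The log2FC was 1.88 ± 0.45 with an adjusted p of 0.0684. Without aged pool 4 it was 1.45, with an adjusted p of 0.0712, with normexp background correction 0.86, and 1.18 with the values of the authors' log2 table. Aged pool 4 also had the highest S100a9, a neutrophil gene, at 2.36, against -0.49 to 0.37 in the other aged pools, and the part of neutrophil RNA in the Btc value was not tested. Egf, whose product gives the family its name, was at -3.44, -3.67, -3.48 and -3.49 in aged pools and -3.77, -4.71, -4.29 and -3.74 in young pools. Its aged pools were close together and just above young pools 2 and 5, with a log2FC of 0.61 ± 0.21 and an adjusted p of 0.201. With normexp background correction the log2FC of Egf was 0.24, and 0.33 with the values of the authors' log2 table. Hbegf, the gene of heparin-binding EGF-like growth factor, had overlapping pools (log2FC 0.093 ± 0.28).

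Ereg and Btc lie on chromosome 5, in a cluster of EGF-like ligand genes that runs Epgn, Ereg, Areg and Btc in RefSeq order with no protein-coding gene of another kind between them. The array's probes for the 4 genes span 327 kb on mm9, and the Areg probe lies 47.5 kb from that of Ereg. Areg (amphiregulin) and Epgn (epigen) gave no signal well above background on the 8 arrays, so these 2 could not be compared. Of the 2 tested genes of the cluster, Ereg passed and Btc did not. Tgfa, the gene of TGF-alpha, was also not tested.

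Among the receptors of the EGF family, Egfr was at 3.94, 3.97, 4.01 and 4.13 in aged pools and 3.99, 3.69, 3.93 and 3.81 in young pools. Its 4 kept probes gave log2FC of 0.073 to 0.18, all with overlapping pools. Erbb2, which has no ligand of its own and pairs with the other ERBB receptors, had a log2FC of 0.016 ± 0.088, and Erbb4 one of 0.045 ± 0.14. Erbb3 was well above background on 0 aged arrays and 2 young arrays and was not tested. The ligands of ERBB3 and ERBB4, the neuregulins, showed no change that passed. Nrg1 had a log2FC of -0.039 ± 0.23 and Nrg2 one of -0.49 ± 0.24 (adjusted p = 0.41), with 1 aged array not well above background. Nrg4, which encodes a ligand of ERBB4, had a log2FC of 0.21 ± 0.17 on its brightest probe and 0.43 ± 0.11, 0.62 ± 0.14 and 0.45 ± 0.19 on its other 3, all positive. On the 2 of these probes whose pools did not overlap the p adjusted over probes was 0.107 and 0.056. With the mean of all kept probes of a gene in place of the brightest probe, 5 of the 47 genes were higher in aged cMSCs and 1 was lower. Over all genes this setting gave 447 higher and 153 lower. Whether Nrg4 was among the 5 is not given here.

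In the VEGF family, 1 of the 5 ligand genes passed. Figf encodes VEGF-D, in the mouse a ligand of VEGFR-3, the receptor of lymphatic endothelium. Its probe lies at chrX:160840395-160840454 (mm9). The level was 3.72, 3.44, 3.32 and 3.76 in aged pools, against 2.88, 2.84, 2.46 and 2.79 in young pools, and no pools overlapped. The log2FC was 0.82 ± 0.14, or 1.76-fold higher in aged cMSCs (adjusted p = 0.0164), and a second probe gave 0.81 ± 0.13 (p adjusted over probes = 0.0174). Within the slide rows it was 0.93 and 0.71. The call was lost without aged pool 1 (log2FC 0.77, adjusted p = 0.0512) and without the filter on dim probes (adjusted p = 0.0742).

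Vegfa, the main growth factor of blood vessel endothelium, was at 1.53, 1.94, 1.81 and 1.72 in aged pools and 2.07, 1.98, 2.11 and 1.87 in young pools. Aged pool 2 lay inside the range of the young pools. The log2FC was -0.26 ± 0.11 and did not pass (adjusted p = 0.315). Of its other 3 probes, 1 gave -0.29 ± 0.15, 1 gave -0.41 ± 0.11 with no overlap of pools, and 1 gave 0.15 ± 0.27. Vegfb and Vegfc had log2FC of 0.000096 ± 0.081 and -0.032 ± 0.072, and Pgf, the gene of placental growth factor, -0.24 ± 0.18. The receptor genes Flt1 and Kdr had log2FC of 0.20 ± 0.15 and 0.067 ± 0.18. For Flt4, which encodes VEGFR-3, none of the 8 arrays gave a signal well above background. Both Flt1 and Kdr are endothelial genes, and the sum of endothelial marker genes, to which Egfl7 gave the most, overlapped between the age groups.

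Hgf encodes hepatocyte growth factor, a ligand that mesenchymal cells release for epithelial and endothelial cells carrying the receptor MET. The level at chr5:16079193-16079252 (mm9) was -1.60, -1.85, -1.62 and -1.60 in aged pools, against -2.46, -2.40, -2.81 and -2.32 in young pools. Aged pools 1, 3 and 4 were within 0.019 log2 units of each other, aged pool 2 was lower, and all 4 lay above the young pools. The log2FC was 0.83 ± 0.12, or 1.78-fold higher in aged cMSCs (adjusted p = 0.00904), with 0.76 and 0.90 in the slide rows. Its other 2 kept probes gave 0.92 ± 0.29 and 0.82 ± 0.19, again with no overlap of pools, and with p adjusted over probes of 0.166 and 0.0627. Met had 2 probes, each well above background on 1 of the 8 arrays, and was not tested, so the ligand was measured here without its receptor.

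**Figure D2:**
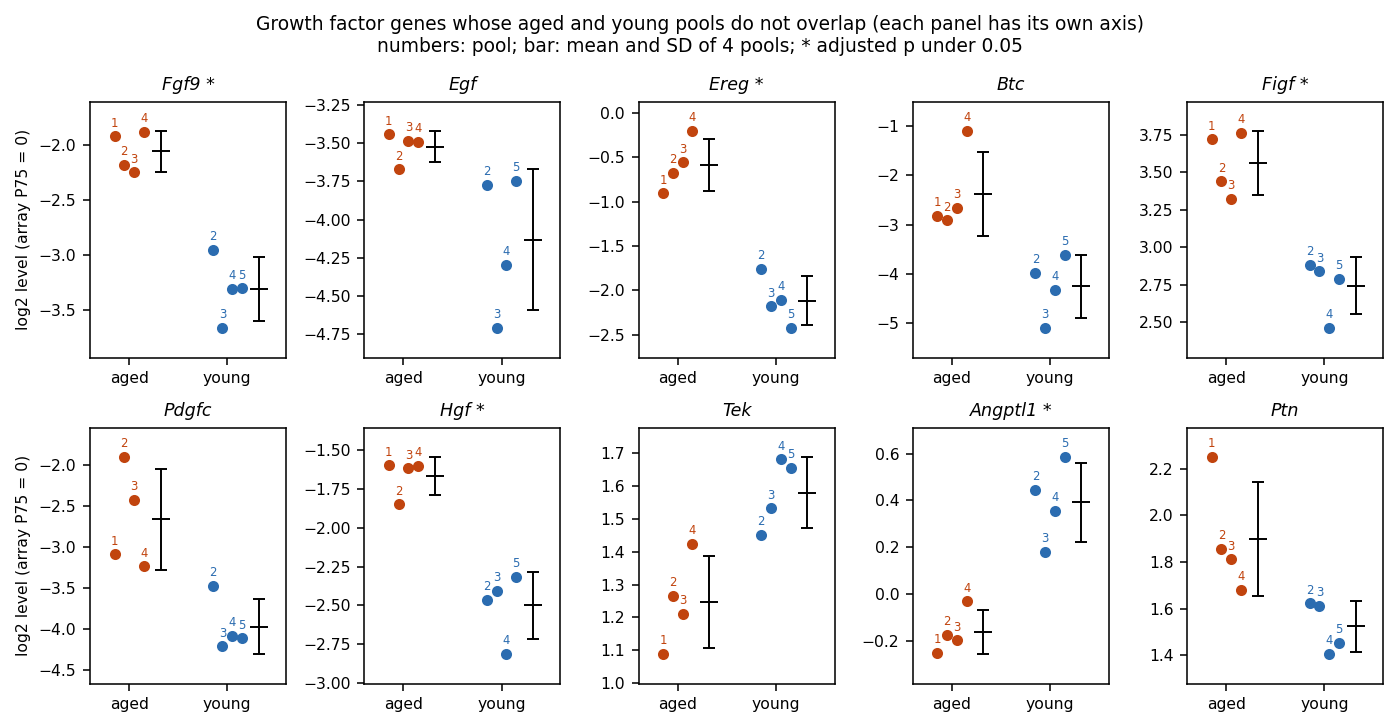
Log2 level of each pool, scaled to its array's 75th percentile, for the 10 genes whose aged pools (left) and young pools (right) did not overlap; numbers name the pools and bars show the mean and SD of 4 pools. The asterisk marks the 5 that passed, and in Btc aged pool 4 is at -1.11, away from the other 3.

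Among the PDGF ligands, growth factors of mesenchymal and mural cells, Pdgfc was higher in each aged pool than in every young pool. Its level was -3.09, -1.90, -2.42 and -3.24 in aged pools, against -3.48, -4.21, -4.08 and -4.11 in young pools. The aged pools were spread over 1.33 log2 units, with pools 1 and 4 close to young pool 2. The log2FC was 1.31 ± 0.30 with an adjusted p of 0.0595, which did not pass. Pdgfc passed in 2 of 12 other settings of normalization, filter, probe, model and table. The slide row as a block was among the 2 (log2FC 1.31, adjusted p = 0.0184). With 1 pool left out Pdgfc passed in 1 of 8 fits. Normexp background correction gave a log2FC of 0.66, against 0.86 with the values of the authors' log2 table. Pdgfa, Pdgfb and Pdgfd had log2FC of -0.13 ± 0.13, 0.15 ± 0.23 and 0.24 ± 0.15, with overlapping pools. Pdgfrb, the receptor of PDGF-B and PDGF-D, was at 4.23, 4.48, 4.28 and 4.36 in aged pools and 4.52, 4.23, 4.27 and 4.29 in young pools, a log2FC of 0.0074 ± 0.095. Pdgfra, on whose protein the cells were sorted, had a log2FC of -0.21 ± 0.091 (adjusted p = 0.347).

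In the angiopoietin family the receptor gene Tek and the ligand-like gene Angptl1 were lower in every aged pool. Tek encodes TIE2, the angiopoietin receptor of endothelium. Its level was 1.09, 1.27, 1.21 and 1.42 in aged pools, against 1.45, 1.53, 1.68 and 1.66 in young pools, with aged pool 4 just below young pool 2. The log2FC was -0.33 ± 0.10, and the adjusted p of 0.125 did not pass. Its relative Tie1 had a log2FC of -0.22 ± 0.25, with overlapping pools. None of the 8 endothelial marker genes passed in limma, and their log2FC lay between -0.14 and 0.37. Of the 8, 0 reached an unadjusted p under 0.05, against 8.5% of all genes higher and 5.66% lower. Angpt1, the ligand that activates TIE2, had 0.25 ± 0.11 (adjusted p = 0.328), and Angpt2, a ligand that can block it, -0.21 ± 0.18.

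Angptl1 encodes angiopoietin-like 1, a secreted relative of the angiopoietins. The ends of its probe lie at chr1:158788711-158790554 (mm9), further apart than the probe is long, as for a probe across a splice junction. The level was -0.25, -0.17, -0.20 and -0.032 in aged pools, against 0.45, 0.18, 0.36 and 0.59 in young pools. All aged pools were below 0 and all young pools above it. The log2FC was -0.56 ± 0.10 (0.68 of the young signal, adjusted p = 0.0247), with -0.52 and -0.59 in the slide rows. The call was lost without the filter on dim probes (adjusted p = 0.117) and without aged pool 1, 2 or 3 or young pool 2 or 4, with the largest adjusted p at 0.0796 without aged pool 1. Angptl2 and Angptl4, the second a regulator of lipoprotein lipase, had log2FC of 0.34 ± 0.15 and 0.38 ± 0.22 and did not pass (adjusted p = 0.369 and 0.524).

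The remaining ligands did not pass. Kitl, the gene of stem cell factor, was at -1.47, -1.26, -1.53 and -1.57 in aged pools and -1.02, -1.43, -1.03 and -1.09 in young pools. Young pool 3 lay among the aged pools, and the log2FC was -0.32 ± 0.12 (adjusted p = 0.249), with 0.0032 ± 0.15 and -0.39 ± 0.16 on its other 2 kept probes. Kit, its receptor, was not tested. Ptn, which encodes the heparin-binding cytokine pleiotrophin, was at 2.25, 1.86, 1.81 and 1.68 in aged pools and 1.62, 1.61, 1.41 and 1.45 in young pools. Its pools did not overlap, by a margin of 0.058 log2 units, and the log2FC was 0.38 ± 0.13 (adjusted p = 0.203). Its second probe gave 0.20 ± 0.14 with overlapping pools. Mdk, the gene of the related midkine, had a log2FC of -0.20 ± 0.11, with like values on its other 2 probes, and Apln, the gene of the peptide apelin, 0.29 ± 0.14.

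More than 1 kept probe was present for 21 of the 47 genes, and in 15 of these all probes gave a log2FC of the same sign. The 6 others were Fgf11, Fgfr1, Fgfr4, Nrg1, Vegfa and Kitl. Hgf and Figf were the 2 genes that passed with more than 1 kept probe, and their probes gave log2FC of 0.82 to 0.92 and 0.81 to 0.82. Fgf9, Ereg and Angptl1 rested on 1 kept probe each, Angptl1 out of 2 on the array. Btc and Pdgfc, which did not pass, also rested on 1 kept probe of 2, with the other well above background on 0 arrays. Egf rested on 1 of 3, with the others well above background on 0 arrays and on 1 aged array. For each of the 10 genes whose pools did not overlap, an exact two-sided permutation test over the 8 pools gave p = 0.0286, the smallest that 4 against 4 pools allow, so this test cannot order them.

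**Figure D3:**
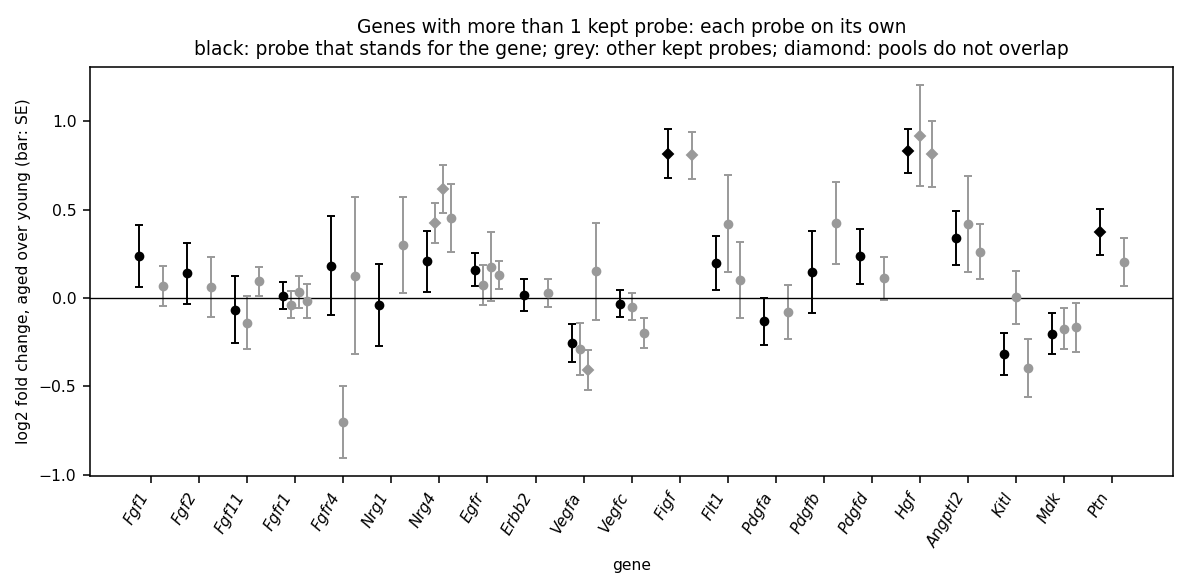
The log2 fold change of aged over young cMSCs with its standard error for every kept probe of the 21 genes that have more than 1; black points are the probes that stand for their genes. The probes of Hgf and Figf lie close together at 0.81 to 0.92, and those of Fgfr4 lie on both sides of 0.

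Other genes of the same pathways, 73 in number and 56 of them tested, were read beside the ligands and receptors. Of the 56, 1 passed as higher and 0 as lower in limma, with 6 higher and 6 lower at an unadjusted p under 0.05, against a background of 8.5% and 5.66% of all genes. Angpt4, 1 of the 6 lower, was well above background on every array only in the young group, where it is high. Its place in that count is not independent of the rule. The median log2FC of the 56 was 0.019, and in 7 the aged pools lay above the young pools and in 1 below, against 6.67% and 4.05% of all genes. The gene that passed was Plat, which encodes tissue-type plasminogen activator, a protease that can activate HGF and, through plasmin, release matrix-bound growth factors. Its level was 2.40, 2.46, 2.31 and 2.51 in aged pools, against 2.02, 1.80, 2.01 and 2.04 in young pools (log2FC 0.45 ± 0.085, adjusted p = 0.027). With 1 pool left out its adjusted p was 0.0453 to 0.0757, and it passed in 1 of these 8 fits. Plau, the gene of urokinase, had a log2FC of 0.00097 ± 0.11, and the sheddases that release EGF-like ligands, Adam10 and Adam17, 0.016 ± 0.10 and -0.029 ± 0.10. Fgfbp3, which encodes a carrier of FGFs, was at -1.31, -1.07, -1.30 and -0.67 in aged pools and -1.60, -1.72, -1.79 and -1.43 in young pools, without overlap (log2FC 0.55 ± 0.16, adjusted p = 0.115).

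Feedback inhibitors and target genes of ERK signalling had a median log2FC of 0.11 over 17 tested genes, 13 of them positive, against 10189 of all 20210 genes. Of the 17, 0 passed in limma, 3 were higher at an unadjusted p under 0.05, against 8.5% of all genes, and 4 had aged pools above all young pools, against 6.67%. Etv1, 1 of these 4, had a log2FC of 0.11 ± 0.065, which turned to -0.0059 with the mean of all kept probes. Etv4, an ETS-family transcription factor gene that FGF signals induce, was at -0.13, 0.019, -0.55 and -0.87 in aged pools, against -1.14, -1.39, -1.20 and -1.86 in young pools. Its pools did not overlap, and the log2FC of 1.01 ± 0.23 came close to the threshold (adjusted p = 0.0526). Dusp4, the gene of a phosphatase that inactivates MAP kinases, was at -2.08, -2.18, -2.45 and -2.16 in aged pools, against -2.63, -2.60, -2.55 and -2.83 in young pools (log2FC 0.43 ± 0.10, adjusted p = 0.0684), and its log2FC was 0.28 with normexp background correction. Spry2, an inhibitor of receptor tyrosine kinase signalling, had a log2FC of 0.30 ± 0.094 (adjusted p = 0.154). Dusp6 and Etv5, other genes of this feedback, had 0.22 ± 0.10 and 0.21 ± 0.094, and the immediate early gene Egr1 0.12 ± 0.18. The 4 negative estimates were those of Errfi1, the gene of an inhibitor of EGFR (-0.28 ± 0.16), Dusp5 (-0.10 ± 0.28), Spred1 (-0.071 ± 0.074) and Spred2 (-0.062 ± 0.070), all with overlapping pools. The 9 adaptor genes had log2FC between -0.20 and 0.23, 4 of them positive, and 0 passed in limma. At an unadjusted p under 0.05, 1 was lower, against 5.66% of all genes, and 0 were higher, against 8.5%. That gene, Cbl, which encodes a ubiquitin ligase of activated receptors, was at -0.73, -0.75, -0.79 and -0.71 in aged pools and -0.57, -0.35, -0.62 and -0.62 in young pools, without overlap (log2FC -0.20 ± 0.083, adjusted p = 0.312), and the mean of all its kept probes gave -0.33. Aplnr, the gene of the apelin receptor, had a log2FC of -0.87 ± 0.25 (adjusted p = 0.123), with overlapping pools. Angpt4, an angiopoietin gene, was not well above background in 2 aged pools, so no fold is given, and it did not pass (adjusted p = 0.118).

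**Figure D4:**
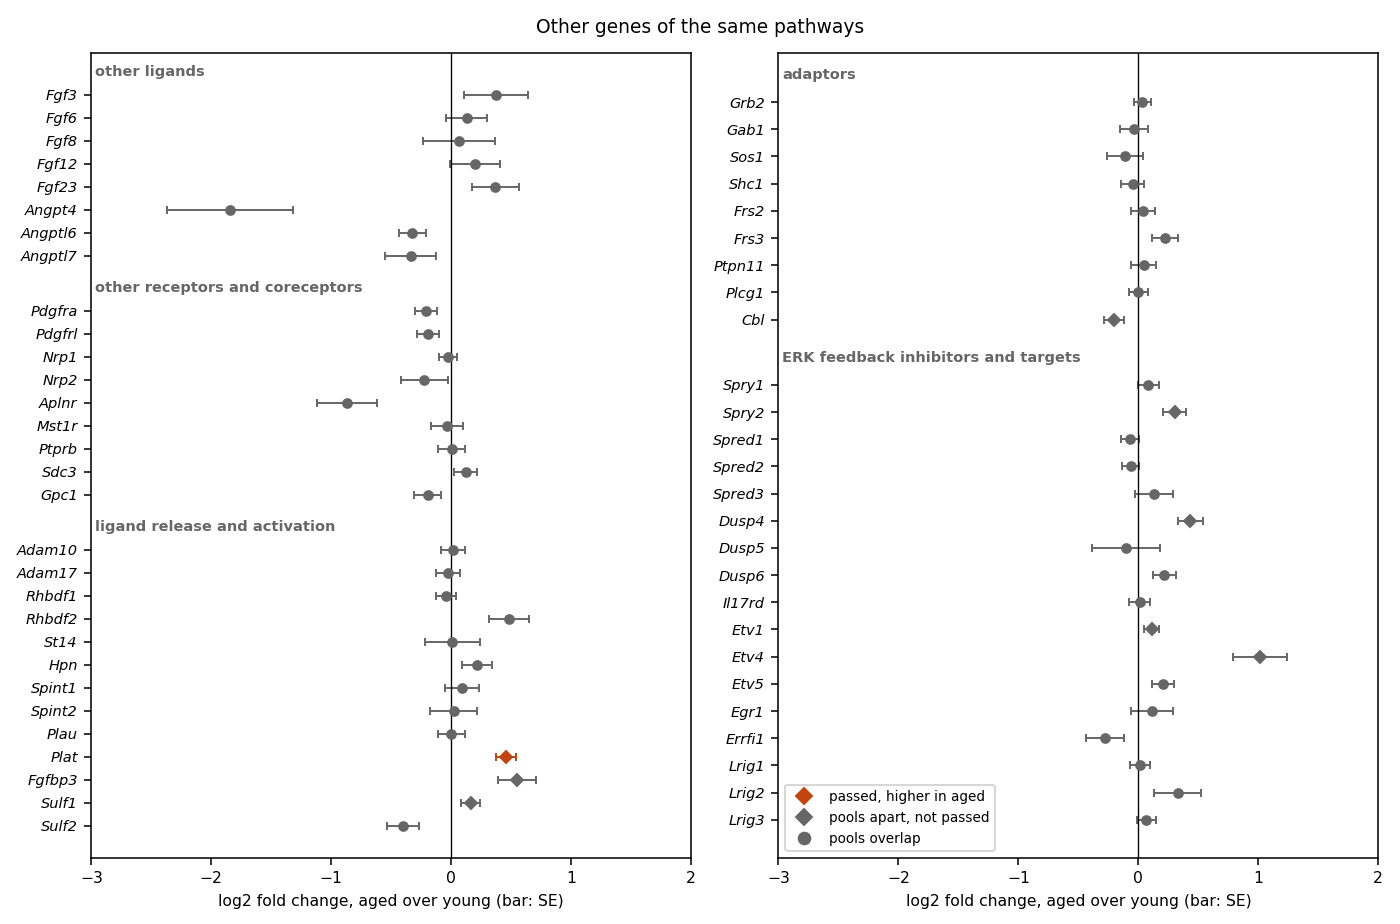
The log2 fold change of aged over young cMSCs with its standard error for 56 other genes of the same pathways, grouped by role. Plat, in colour, is the 1 that passed, and Etv4 at 1.01 has the largest positive estimate; the point of Angpt4 includes 2 aged pools in which it was not well above background.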

How the data were processed

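RNA of 4 aged and 4 young pools of sorted cMSCs was hybridized to 8 arrays on 1 slide. The authors deposited the scanner output, intensities that the authors' software (Agilent Feature Extraction 10.10.1.1, build mm9, per the file headers) had background-subtracted and detrended. They also deposited a log2 table of the same arrays, quantile-normalized by the authors, with a median of 8.12 on each array; it served as an alternative. Control and outlier spots were dropped, log2 processed signals were scaled to the 75th percentile that the software reports, and repeat spots were averaged. For each gene the brightest probe well above background on the 4 arrays of a group was kept. No spot was saturated, and 57.8% to 63.4% of spots were well above background; the number of arrays limits the precision. Of 56605 probes, 33895 were named by accession through a GRCm38.p6 table.

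Differences of aged and young pools were fitted without covariates in limma 3.58.1 (R 4.3.3; lmFit, eBayes; 6 residual and 2.53 prior degrees of freedom), with Benjamini-Hochberg adjustment over 20210 genes; the script was tested on simulated data. Permutation tests were exact and two-sided. Tables and figures used Python 3.11.15, pandas 2.3.3, numpy 2.4.6 and matplotlib 3.10.9. Values per pool are printed for members that passed, had an unadjusted p under 0.01 or had pools that did not overlap, and for ligands and receptors of the same pair; others given per pool were chosen after their values were seen. The members and the gene lists were chosen with earlier results of these data known. The study names 2 mouse lines, and the sources used here do not tie either to these pools. Alternatives were other normalizations, background corrections, filters, probe rules, blocks, limma options, the authors' table, the paper's thresholds and leaving out each pool.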

Additional observations from a re-analysis of the deposited data

Results flagged for a closer look

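Among the 94 groups of 4 pools given by the 47 tested genes, 3 held a pool far from the other 3; the gap to the nearest pool, as a share of the group's range, was past Dixon's 95% critical value. Chance gives about 1 in 20 groups. In Hgf, aged pool 2 was at -1.85 and the other aged pools between -1.62 and -1.60 (gap 0.924 of the range), and all 4 stayed above the young pools. In Btc, aged pool 4 was at -1.11 and the others between -2.92 and -2.67 (gap 0.862). In Fgf16, aged pool 2 was at -3.82 and the others between -4.18 and -4.12 (gap 0.836). The cause of these gaps was not tested.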

How the results depend on the processing

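Ereg, Fgf9 and Hgf passed as higher in aged cMSCs under all 12 other settings of normalization, filter, probe, model and table and with each of the 8 pools left out, but none of the 3 passed with the pool number as a replicate block, and Hgf did not with the pool code as one (adjusted p = 0.0539 in limma). Figf failed without a filter on dim probes and without aged pool 1, and Angptl1 failed without that filter and in 5 of the 8 fits with 1 pool left out. With 1 pool left out, 260 to 372 of all genes were higher and 68 to 159 lower, 3 to 5 members were higher and 0 to 1 lower, and 0 to 1 of the other pathway genes were higher and 0 to 2 lower. All-gene counts of 477 higher and 159 lower became 200 and 44 without the filter, 342 lower with array weights, and 254 lower at the paper's thresholds. Without the filter 0 members were lower. Of the other pathway genes, 1 was higher and 0 lower; 0 were higher with median scaling, without the filter and with the mean of all probes, and 2 were higher with normexp, the filter on all 8 arrays, the slide row as a block, trend and robust options, array weights and the paper's thresholds. Lower were 1 with normexp, 1 with array weights and 2 at the paper's thresholds, with Angpt4, tested only through the young group, among these 2. The log2FC of Etv1 turned to -0.0059 with the mean of all kept probes. The cause of these shifts was not tested. Of 527 values for 24 single genes, 484 kept their direction and side of the threshold, 28 no longer passed, 14 newly passed and 1 turned.

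The pool numbers 2, 3 and 4 are shared by both ages, and deviations of same-numbered pools correlated at 0.18, -0.17 and -0.27, so the numbers were not read as pairs. The codes of aged pool 1 and young pool 5 also match, and the deviations of these pools correlated at 0.14. With the pool number as a replicate block 14 genes were higher and 2 lower, with 0 members higher, 0 lower and 0 pathway genes higher. With the pool code as a replicate block 206 were higher and 51 lower, with 3 members higher (Ereg, Fgf9 and Pdgfc), 0 lower and 0 pathway genes higher. Figf did not pass with that block (adjusted p = 0.0949). Btc passed in 3 of 11 other settings, array weights among them (log2FC 1.64, adjusted p = 0.0345), and in 0 of 8 fits with 1 pool left out. With normexp the log2FC of Btc, Pdgfc and Egf was 0.86, 0.66 and 0.24.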
